A study of Mus musculus with 3 samples.

Results

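The carbonic anhydrase genes Car13, Car1, Car3 and Car2 lie side by side on mouse chromosome 3, and their open chromatin was examined in MEL cells, an immortalized murine erythroleukaemia line. The 4 genes were taken by name from GENCODE. Car13 (14641727 to 14663002), Car3 (14863512 to 14872523) and Car2 (14886273 to 14900770) run on the plus strand, and Car1 (14766216 to 14808368) on the minus strand. Every deposited DNase I peak and hotspot from 50 kb before Car13 to 50 kb after Car2 (chromosome 3, 14591727 to 14950770, 359 kb, mm10) was included. Replicate 1 had 62 of its 304049 peaks in this window, and replicate 2 had 31 of 106591. Peaks of both lists that touched were joined, so that each site counted once, which left 65 sites of 317380 on the main chromosomes. Hotspots, the broader stretches enriched in DNase I cuts, numbered 51 of 258249 in replicate 1 and 28 of 82250 in replicate 2.

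Carbonic anhydrases are zinc enzymes that turn carbon dioxide and water into bicarbonate and a proton, and back. Red cells hold large amounts of cytosolic carbonic anhydrase, which lets them carry carbon dioxide from tissues to the lungs as bicarbonate. Car2 encodes a very fast enzyme found in red cells, kidney, stomach and bone-resorbing cells. Car1 encodes an abundant red cell enzyme and is known to use separate promoters in red cells and in the colon. Car3 encodes a slow enzyme of muscle, fat and liver, and Car13 a cytosolic enzyme of several tissues.

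All 3 libraries came from MEL cells kept for 24 hours in zinc dichloride (125 per the labels, with an unreadable unit prefix). Replicate 1 is a list made from 2 libraries of 1 biological replicate, and replicate 2 is a list made from 1 library of another. Neither an untreated library nor a second cell line was analysed here, so nothing below measures an effect of zinc. Both lists come from 1 established tumour line, which is a model of red cell precursors and not a normal tissue. Each list gives a peak a score, a whole number set by the authors that does not exceed the 150 bp width of every peak. What it counts is not stated, so scores were ranked only within a list. A site is given the score of its highest peak in each list. The files give no read counts, so depth is unknown and single peaks carry no interval. Each biological replicate is 1 list: neither a standard deviation nor a test was possible, and values are given for replicate 1 and then replicate 2.

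The labelled lineage was compared with short lists of marker genes, chosen with earlier results of these data known. Promoter calls were common: 63.6% of all protein-coding genes were called in replicate 1, and 49.0% in replicate 2. A single call therefore says little about lineage, and no test was made of the counts. All 8 erythroid markers (Gata1, Klf1, Tal1, Gfi1b, Epor, Tfrc, Zfpm1 and Lmo2) had a promoter peak in both replicates. Of 4 T cell markers, 1 (Cd3e) had one in both. Of 4 liver markers, 2 had one in replicate 1 and 1 in replicate 2. Of 4 markers of colon and kidney epithelium, tissues that also use carbonic anhydrases, Vil1 had one in replicate 1 and none had one in replicate 2.

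Promoters of the cluster were open at Car13 and Car2 in both replicates, and at Car1 in replicate 1 alone. Car3 had a call only downstream of an internal start, and none at its coding start. A gene's promoter was taken as 1000 bp on either side of each of its annotated transcript starts. By that rule 4 of the 4 genes had a promoter peak in replicate 1, where 63.6% of all 21938 protein-coding genes had one. In replicate 2, 3 of the 4 had one, against 49.0% of all genes. A group of 4 genes is too small to set apart from those shares, and no test was made.

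**Figure D1:**
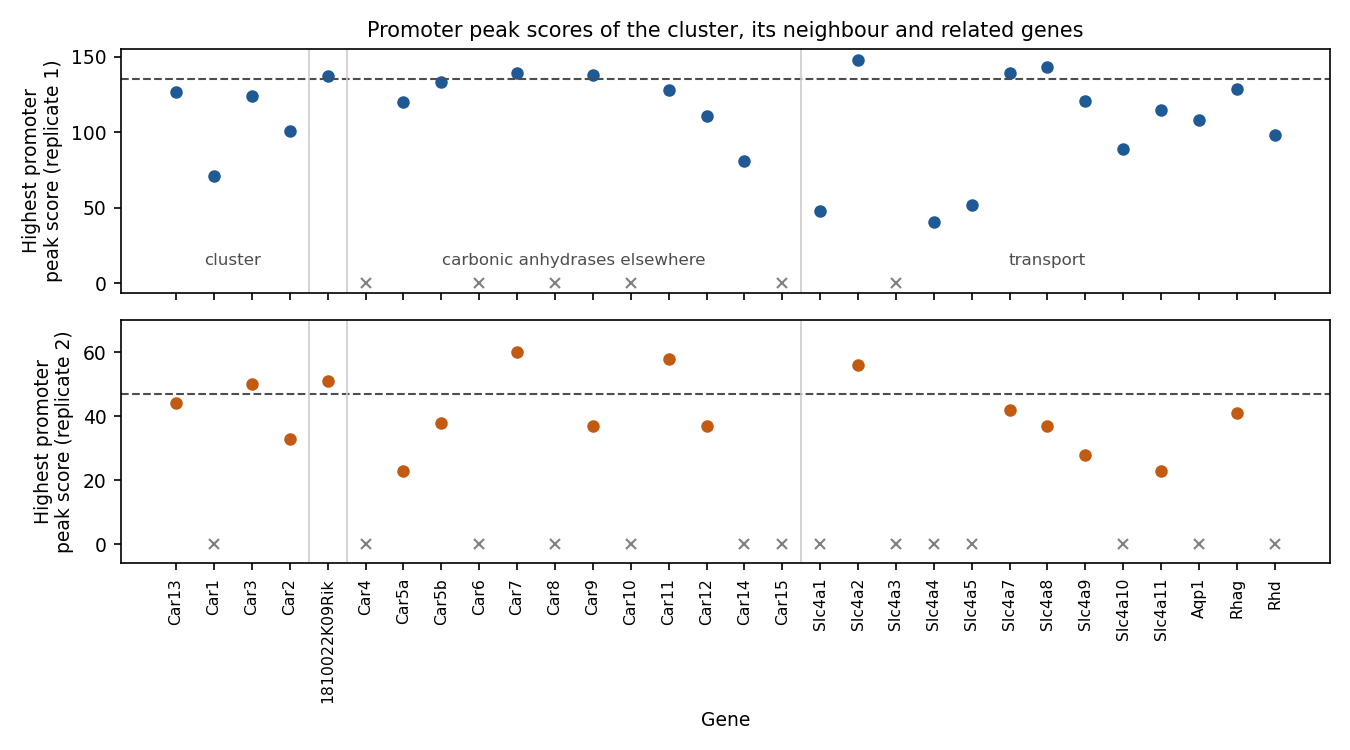
Highest promoter peak score of each gene (vertical axis, whole-number score as deposited, separate scale per replicate) for the cluster, its neighbour 1810022K09Rik, carbonic anhydrases elsewhere and transport genes. Crosses on the baseline mark genes with no promoter peak, and the dashed lines mark the median over all genes with one (135 in replicate 1 and 47.0 in replicate 2). Car1 is the lowest of the cluster in replicate 1, at 71, and has a cross in replicate 2.

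Car13 had the highest promoter score of the cluster in replicate 1, at 127 (chromosome 3, 14641596 to 14641745, across the start and into the 5′ untranslated part of exon 1). A further peak in the first intron (14641976 to 14642125) was called at the identical position in both lists, with scores of 75 in replicate 1 and 27 in replicate 2. Replicate 2 had its higher Car13 peak upstream, at 14641376 to 14641525, with a score of 44. The upstream peak and the peak across the start do not overlap, so they count as separate sites. A single hotspot of each replicate spans both (−log10 q of 100, the ceiling, in replicate 1 and 5.30 in replicate 2).

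Car2 had 3 promoter peaks in each replicate. Its exons are numbered here and below by the coding transcript that starts at 14886428. The first start, at 14886273, belongs to another transcript. In replicate 1 the scores were 101 just upstream of the first start (14886116 to 14886265), 98 at the end of the first exon (14886716 to 14886865) and 89 in the intron behind it (14887316 to 14887465). In replicate 2 they were 22 (14886436 to 14886585) and 29 (14886576 to 14886725) in the first exon and 33 (14887056 to 14887205) in the intron. Replicate 1 thus had its highest promoter score upstream of the gene and replicate 2 behind the first exon. Replicate 1 had 1 hotspot at the ceiling across the promoter (14885998 to 14888042). Replicate 2 had 2 there, of 1.96 (14886392 to 14886505) and 4.41 (14886515 to 14887698). Car2 also had 3 peaks farther inside the gene in replicate 1 alone. They scored 74 at exon 2 (14887756 to 14887905) and 73 and 62 in the following intron (14893136 to 14893285 and 14893816 to 14893965).

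Car1 is annotated with starts at 14808365 and 14808368, 3 bp apart, and with a separate start at 14778459. The upstream pair had 1 peak in replicate 1 (14808336 to 14808485, score 71), inside a hotspot of 4.89 that was below the ceiling. Replicate 2 had no peak within 1000 bp of them, and its nearest peak lay 2.4 kb downstream. At the start at 14778459 neither replicate had a peak: the nearest, in both lists, was 26.6 kb away. In the replicate 1 list, 56.8% of all peaks scored lower than the peak at the upstream pair.

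Car3 had no peak at the start of its coding transcript, at 14863538. The nearest peak was 3.95 kb inside the gene in replicate 1 (14867416 to 14867565, score 42) and 6.35 kb inside in replicate 2. Its promoter call came from a transcript with a retained intron, which starts at 14869178. The peak downstream of that start scored 124 in replicate 1 (14869916 to 14870065) and 50 in replicate 2 (14869816 to 14869965). In replicate 1 it reached exon 6 of the coding transcript. Its midpoint lay 812 bp past the internal start in replicate 1 and 712 bp in replicate 2. With a promoter half-width of 500 bp the call was lost in both. The peak lay in a hotspot at the ceiling in both replicates. With starts of protein-coding transcripts only, Car3 dropped out, and 3 and 2 of the 4 genes had a promoter peak, against 60.7% and 47.0% of all genes.

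By highest promoter score the order was Car13 (127), Car3 (124), Car2 (101) and Car1 (71) in replicate 1. It was Car3 (50), Car13 (44) and Car2 (33) in replicate 2, with no value for Car1. The Car3 values belong to the peak downstream of its internal start, and not to its coding start. Without a standard deviation, Car13 and Car3 cannot be ordered. Among all genes with a promoter peak, 35.1% scored below Car13, 31.7% below Car3, 19.2% below Car2 and 11.9% below Car1 in replicate 1. In replicate 2 the shares were 39.0% for Car13, 60.6% for Car3 and 13.3% for Car2. In replicate 1 each gene of the cluster therefore stood below the median of the called promoters (135), with Car1 and Car2 lowest. In replicate 2 Car13 and Car2 stood below the median (47.0) and Car3 above it.

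The promoter peaks differed in base composition, also within a gene. The peak across the Car13 start held 70% G and C and 13 CpG dinucleotides, and the peak upstream of Car2 held 72.0% and 13. At the Car1 start the values were 50% and 1 CpG. Over the whole replicate 1 list the medians were 48.0% and 1.00 CpG per peak. The Car3 peak downstream of the internal start held 52.0% G and C and 5 CpG in replicate 1, and 40.7% and 3 in replicate 2. The other peaks of Car13 and Car2 were not all rich in G and C. The peak in the first intron of Car13 held 50.7%, and the upstream Car13 peak of replicate 2 held 48.0%. At Car2, the intron peaks held 47.3% in both replicates, and the first exon peaks of replicate 2 held 72.7% and 66.0%.

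The only other protein-coding gene that starts in the window is 1810022K09Rik, upstream of Car13. Its promoter scored 137 in replicate 1 and 51 in replicate 2, above each promoter score of the cluster. The shared site there was 14611276 to 14611505, and a further replicate 1 peak at 14611596 to 14611745 scored 123. Replicate 2 had 2 more peaks on its flanks, scoring 19 (14610736 to 14610885) and 23 (14611876 to 14612025).

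Across the window, peaks were denser than over the genome in both replicates. Replicate 1 had 1.73 peaks per 10 kb, compared with 1.11 over the genome, and replicate 2 had 0.863, compared with 0.390. Of 7582 genome windows of the same length laid end to end, assembly gaps included, 29.0% held at least as many peaks in replicate 1 and 16.0% in replicate 2. The median window held 27 and 7. Replicate 1 had 2.00 times as many peaks as replicate 2 in the window and 2.86 times as many over the genome. With replicate 1 limited to its highest scores, so that both lists had the same length, the window held 22 of its peaks against 31 of replicate 2, and the order turned.

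**Figure D2:**
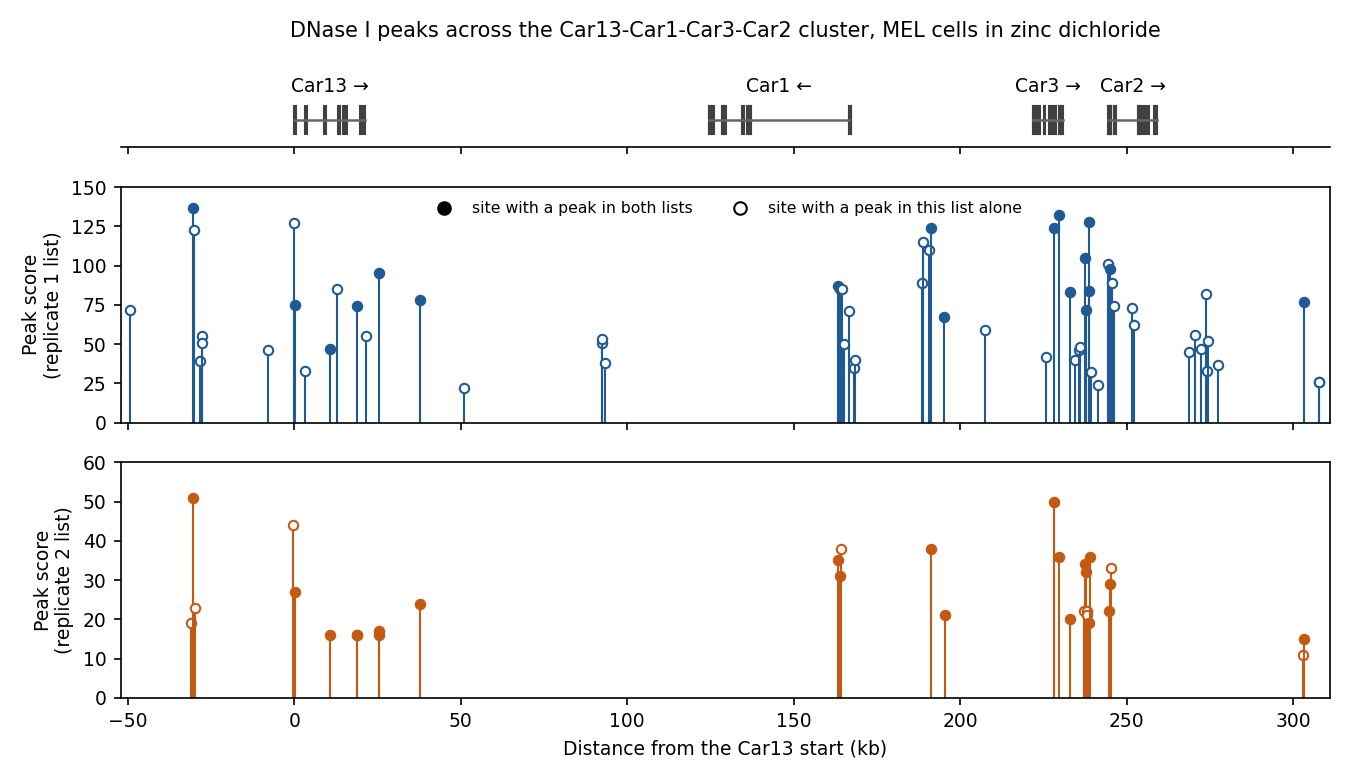
Peaks by distance from the Car13 start in kb (horizontal axis) and deposited score (vertical axis, separate scale per replicate), with the exons of the 4 genes and their direction above. Filled points belong to the 18 sites with a peak in both lists and open points to sites of 1 list. A stretch without peaks that ends inside Car1 is 69.8 kb long in replicate 1 and, starting nearer to Car13, 125 kb long in replicate 2.

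Scores in the window stood on different sides of their list's median. In replicate 1 the median score was 69.0, compared with 62.0 over the whole list. In replicate 2 it was 23, compared with 30.0. Of the hotspots in the window, 29 of 51 (56.9%) reached the ceiling in replicate 1, near the 55.6% of the whole list. In replicate 2, 2 of 28 (7.14%) did, below the 16.9% of the whole list. These 2 hotspots were at 1810022K09Rik and inside Car3. Replicate 2 thus had more peaks in the window than its list has per length, with a median score below that of its list.

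Of the 65 sites, 18 (27.7%) had a peak in both replicates, compared with 21.6% of all sites of the genome. Another 39 were found in replicate 1 alone, and 8 in replicate 2 alone. The replicate 1 score had a median of 86.0 (47 to 137) at shared sites and 53.0 (22 to 127) at sites of replicate 1 alone. The ranges overlap. Of the 8 sites of replicate 2 alone, 7 overlapped a replicate 1 hotspot at the ceiling by at least 1 bp. Of the 39 sites of replicate 1 alone, 3 overlapped a hotspot of replicate 2. Replicate 1 has more hotspots over its whole list (258249, compared with 82250). The same shares were not computed over the genome, so nothing was read from these overlaps about the window. Peaks of a shared site started a median of 40 bp apart, and at 4 sites the positions were identical. Peak starts of both lists in the window fall on a common grid of regular steps. An identical position therefore does not show a match to the single base, and its share was not computed over the genome. By position, 37 sites were intergenic, 13 were at promoters, 12 in introns and 3 in exons. The promoter sites include those of 1810022K09Rik, and these shares were not computed over the genome either.

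The stretch between Car3 and Car2 had the highest density of the 9 segments set by the gene borders. Its 13.7 kb held 11 peaks of replicate 1 and 8 of replicate 2, or 8 and 5.82 per 10 kb. Hotspots covered 28.9% of it in replicate 1 and 12.5% in replicate 2, compared with 3.95% and 1.24% of the genome. Car2 and Car3 themselves came next, with 3.45 and 3.33 per 10 kb in replicate 1 and 2.07 and 2.22 in replicate 2. Between Car13 and Car1, 103 kb held 7 and 3 peaks, or 0.678 and 0.291 per 10 kb, below the density of the genome in both replicates.

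**Figure D3:**
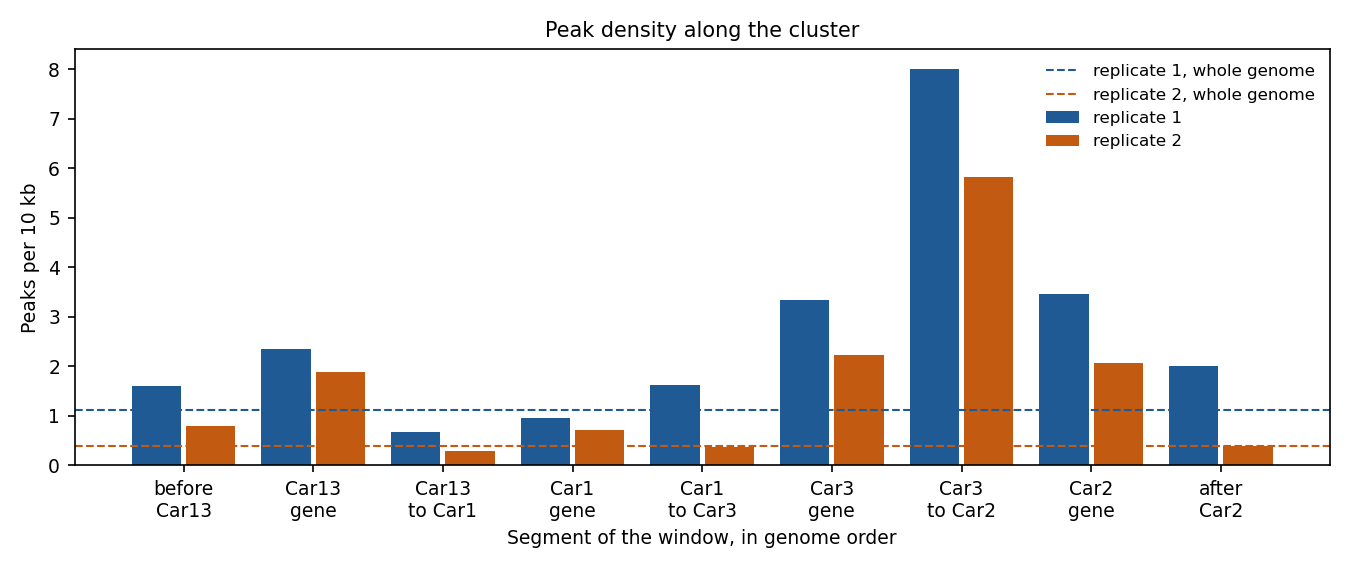
Peaks per 10 kb (vertical axis) in the 9 segments set by the gene borders, in genome order (horizontal axis), counted by peak midpoint. Dashed lines give the density over the genome, 1.11 in replicate 1 and 0.390 in replicate 2. The segment from Car3 to Car2 stands highest in both replicates, at 8 and 5.82.

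Away from the Car2 promoter, the highest 2 site scores of this segment in each replicate lay 7.18 and 5.82 kb upstream of the first Car2 start (distances to site midpoints). Replicate 1 had 3 hotspots in a row there (14878636 to 14879956, 14879958 to 14880384 and 14880389 to 14880842), each at the ceiling. Replicate 2 had 6 hotspots over the same stretch, with −log10 q from 1.52 to 4.29. Within it, the site at 14880236 to 14880665 scored 128 in replicate 1 and 36 in replicate 2. The site at 14879016 to 14879165, called at the identical position in both lists, scored 105 and 34. A weaker shared site (14879416 to 14879605) scored 72 and 32. Sites of replicate 2 alone lay beside them, with a score of 22 at 14878816 to 14878965 and at 14879756 to 14880005.

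In both replicates, the highest score of this stretch exceeded the highest score at the Car2 promoter, by 128 to 101 in replicate 1 and by 36 to 33 in replicate 2. The hotspots did not give this order. Both places reached the ceiling in replicate 1, and in replicate 2 the highest −log10 q was 4.29 in the stretch and 4.41 at the promoter. Enhancers upstream of Car2 that are bound by the Ldb1 complex are known in erythroid cells, and whether these sites are the same elements was not tested. A further shared site lay 11.1 kb behind the coding start of Car3 (14874496 to 14874765), past the end of that gene, and scored 83 and 20. The other 5 sites between Car3 and the Car2 promoter had peaks in replicate 1 alone, with scores from 24 to 48.

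**Figure D4:**
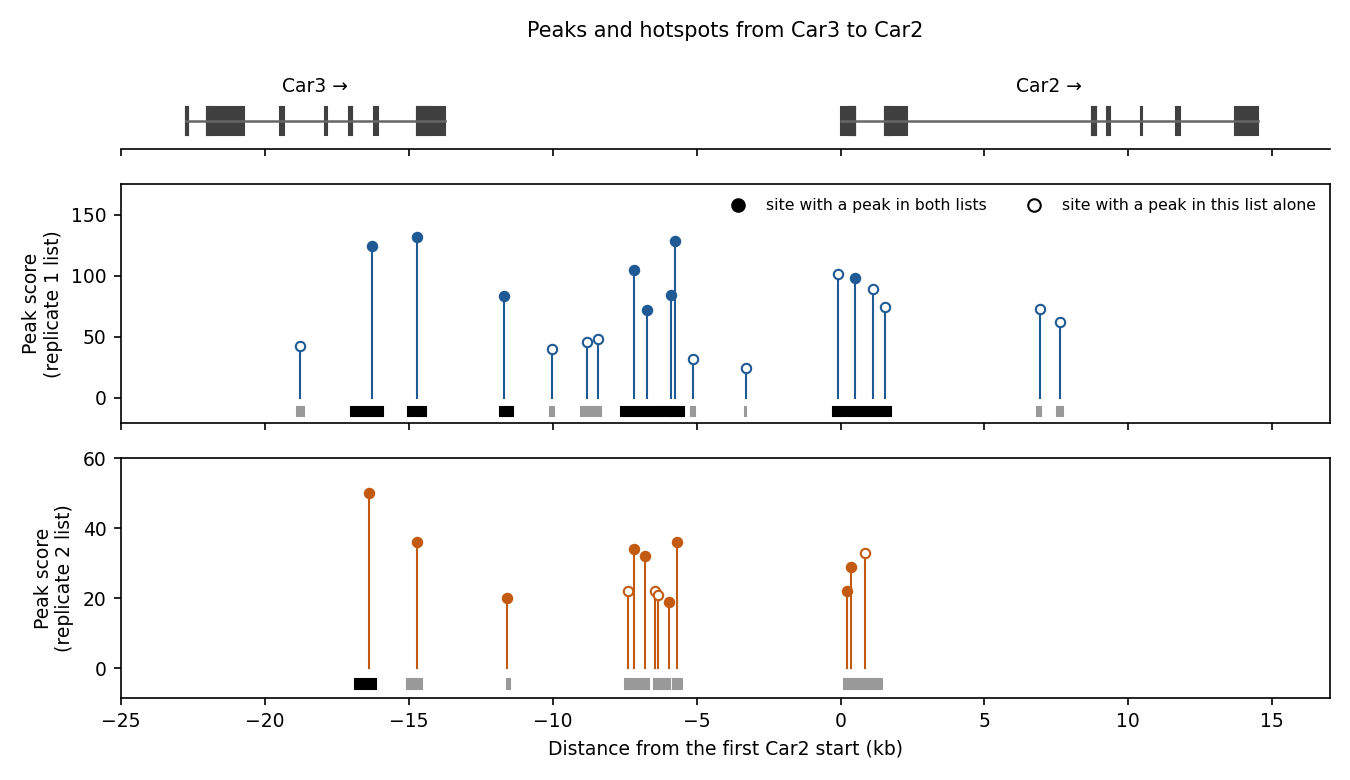
Peaks (points, deposited score on the vertical axis, separate scale per replicate) and hotspots (bars under the points, black where −log10 q is at its ceiling and grey below) by distance from the first Car2 start in kb. Exons of Car3 and Car2, all transcripts joined, are drawn above. The group of peaks between 5 and 10 kb upstream of Car2 reaches 128 in replicate 1 and 36 in replicate 2.

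Inside Car3, a second strong site covered the border of exon 7, the last exon of the gene (14871476 to 14871625, coding part). It was called at the identical position in both lists and scored 132 and 36. Of the sites away from promoters it had the highest replicate 1 score of the window, where 93.6% of all peaks scored lower. In replicate 2, 64.5% of all peaks scored lower. The Car3 sites downstream of the internal start and at exon 7 lay 6.40 and 8.01 kb behind the coding start, in a gene of 9.01 kb.

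In the first intron of the long Car1 transcripts, 5 sites lay within 3.35 kb of the upstream starts and 2 of them were shared. The shared ones were 14804936 to 14805085, at the identical position in both lists (scores 87 and 35), and 14805436 to 14805625 (85 and 31). Between them and the start, replicate 2 had a peak of 38 (14805896 to 14806045) and replicate 1 a peak of 85 (14806056 to 14806205), 10 bp apart. A weaker peak followed in replicate 1 alone (14806816 to 14806965, score 50). Each of the first 3 replicate 1 peaks scored above the peak at the start, which had 71. In replicate 2, the highest Car1 score (38) was above the highest score at the Car2 promoter (33), although Car1 had no promoter peak there. The hotspots of replicate 2 gave the opposite order. Their −log10 q was 1.84, 1.56 and 1.49 at these Car1 intron sites, and 1.96 and 4.41 at the Car2 promoter.

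Upstream of Car1, between Car1 and Car3, 4 of the 10 highest distal replicate 1 scores fell within a stretch of 3 kb. They were 115 (14830456 to 14830605), 110 (14832236 to 14832385), 89 (14830136 to 14830285) and 124 (14832876 to 14833065). The last was the only one with a peak in replicate 2, where it scored 38 with 69.2% of the list below it. The stretch lies 21.8 to 24.6 kb upstream of the Car1 starts. Farther on, a weaker shared site (14836936 to 14837145) scored 67 and 21.

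Around Car13, the shared distal sites scored below the replicate 2 list's median of 30.0. Inside the gene, sites at 14652256 to 14652485 and 14660476 to 14660765 scored 47 and 74 in replicate 1 and 16 each in replicate 2. Behind the gene, sites at 14667156 to 14667365 and 14679296 to 14679485 scored 95 and 78 in replicate 1, and 17 and 24 in replicate 2. An intron site of replicate 1 alone (14654536 to 14654685) scored 85, a value shared with 2 sites in Car1. Past Car2, the only shared site was 14944776 to 14944965 (77 and 15), next to a replicate 2 peak of 11 (14944496 to 14944645), the lowest of that list in the window.

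Short motifs of blood cell factors were searched on both strands of each peak, and their shares were set beside those of all peaks of the same list. A match is a description of letters and not of binding. The PU.1 motif (GAGGAAGT), bound by the myeloid factor that the leukaemia gene Spi1 encodes, was in 12 of 62 replicate 1 peaks (19.4%), compared with 8.47% of the whole list. In replicate 2 it was in 1 of 31 (3.23%), compared with 4.76%. Of the 11 sites that held it, 9 had a peak in replicate 1 alone, as did 39 of all 65 sites of the window. The split of motif sites by replicate was not computed over the genome for any motif, so nothing was read from it. The GATA motif (AGATAA), bound by Gata1 and Gata2, was in 8 of 62 peaks (12.9%, whole list 9.52%) in replicate 1. In replicate 2 it was in 5 of 31 (16.1%, whole list 9.22%). By site, 4 of the 18 shared sites held the GATA motif, 5 of the 39 of replicate 1 alone and 1 of the 8 of replicate 2 alone. The identical site upstream of Car2 at 14879016 was among them. The higher-scoring site at 14880236 to 14880665 was not.

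The combined E-box and GATA motif (CTG, then 7 or 8 bases, then AGATAA, so that it overlaps GATA), bound by Tal1 with Gata1, was in 1 peak of replicate 2 and 0 of replicate 1. The whole lists held it in 0.567% and 0.719% of peaks. That peak was the one inside Car3 at 14869816 to 14869965, which scored 50. NF-E2 (TGC joined to TGAGTCA, so that it overlaps AP-1) was in 0 peaks of either replicate, with 0.371% and 0.200% over the whole lists. AP-1 (TGANTCA) was in 5 and 1 peaks, or 8.06% and 3.23%, with 6.24% and 4.98% over the lists.

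The CACCC box of Klf factors (CCNCNCCC) was in 5 and 3 peaks, or 8.06% and 9.68%, with 17.1% and 15.3% over the lists. Its sites included the one over the Car13 start and, at Car2, those just upstream of the first start and at the first exon. RUNX (TGTGGT) was in 4 and 2 peaks, 6.45% in both, with 14.9% and 11.9% over the lists. The core of the CTCF motif, the insulator protein, was in 1 peak of each replicate, with 6.50% and 5.13% over the lists. Both of these peaks belong to the shared site behind Car13 at 14679296 to 14679485. The metal response element core (TGCNCNC), bound by the zinc sensor Mtf1, was in 8 and 6 peaks, or 12.9% and 19.4%, with 26.2% and 25.8% over the lists. Neighbouring peaks share sequence, and with counts this small no motif was set apart from the lists.

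Of 12 carbonic anhydrases outside the cluster, replicate 1 had a promoter peak at 7 and replicate 2 at 6. These shares are near the 63.6% and 49.0% of all genes, and nothing was read from them about the family. Both replicates had one at Car7 (139 and 60), Car9 (138 and 37), Car5b (133 and 38), Car11 (128 and 58), Car5a (120 and 23) and Car12 (111 and 37). Car5a and Car5b encode the mitochondrial enzymes, Car9 and Car12 are membrane enzymes, and Car11 encodes a related protein without catalytic activity. Car14, another membrane enzyme, scored 81 in replicate 1 alone. Car4, Car6, Car8, Car10 and Car15 had none in either. With starts of protein-coding transcripts only, 4 and 3 of the 12 had one, when 60.7% and 47.0% of all genes did. By that rule Car5a, Car11 and Car14 had none in either replicate, and Car9 had one in replicate 1 alone.

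Genes that move bicarbonate, chloride and gases across membranes had a promoter peak at 12 of 13 in replicate 1, where 63.6% of all genes had one, and at 6 of 13 in replicate 2, where 49.0% did. The count in replicate 2 is near the share of all genes. With starts of protein-coding transcripts only, 10 and 5 of the 13 had one, when 60.7% and 47.0% of all genes did. With the highest-scoring 50% of peaks, 9 and 4 had one. The genes were chosen with earlier results known, and no test was made of the count in replicate 1. The anion exchanger gene Slc4a2 scored 148 and 56, and the bicarbonate cotransporter genes Slc4a8 and Slc4a7 scored 143 and 37 and 139 and 42. Rhag, a membrane protein of red cells, scored 129 and 41. Slc4a9 scored 121 and 28, and Slc4a11 115 and 23. Replicate 1 alone had a peak at the water channel gene Aqp1 (108), at Rhd (98), Slc4a10 (89), Slc4a5 (52), Slc4a4 (41) and Slc4a1 (48). Slc4a1 encodes band 3, the red cell exchanger that works together with carbonic anhydrase. Slc4a3 had none in either. With starts of protein-coding transcripts only, Slc4a10 and Slc4a5 had none in either replicate, and Slc4a9 had one in replicate 1 alone.

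Measured in the same way, with 50 kb on either side, the globin clusters had more peaks per length in replicate 1 and fewer in replicate 2. The beta-globin genes (141 kb on chromosome 7) had 39 peaks in replicate 1 and 2 in replicate 2, or 2.77 and 0.142 per 10 kb. The alpha-globin genes (121 kb on chromosome 11) had 44 and 8, or 3.64 and 0.662 per 10 kb. The carbonic anhydrase window had 1.73 and 0.863. The number of replicate 1 peaks per replicate 2 peak was 2.00 for the carbonic anhydrase genes, 19.5 for beta-globin and 5.50 for alpha-globin. The sources used here do not say how reads matching several near-identical globin copies were counted, and no test of this difference could be made with 1 list per replicate.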

How the data were processed

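DNase-seq of 3 libraries in 1 group was used. Per the deposited text records, the series-level lists derive from the alignment named for both libraries of biological replicate 1, and the other lists from biological replicate 2. The build is mm10, per the labels; the sources used here do not name the aligner, caller or filters. Peak scores are the authors' own whole-number scores per peak. Hotspot values, deposited by the authors, are −log10 q-values from 1.30 to a ceiling of 100.

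Peaks off chromosomes 1 to 19, X and Y were left out. All 84 list-by-chromosome ends lay within GRCm38 lengths. Genes came from GENCODE mouse release 21. Overlap meant at least 1 bp. Python 3.11.15, numpy 2.4.6, pandas 2.3.3 and matplotlib 3.10.9 were used, and the counting steps were tested on simulated data. No test between groups was possible. Named were all members, other protein-coding genes starting in the window, related genes by their calls, every promoter peak, the 10 highest-scoring distal sites of replicate 1, every shared distal site and every site of replicate 2 alone. Some other sites were named after their values were seen. The members and lists were chosen with earlier results of these data known. Alternatives varied the promoter width (500 or 2000 bp), flank (20 or 100 kb), score filter, overlap, hotspots, motif width and replicates. Counting starts of protein-coding transcripts only was chosen after seeing the data. Sequences of the sites and 1 further marker list are not reported here.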

Additional observations from a re-analysis of the deposited data

How the results depend on the processing

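The number of cluster genes with a promoter peak (4 in replicate 1, 3 in replicate 2) stayed between 3 and 4 in replicate 1 and between 2 and 3 in replicate 2 under every setting tried. Car3 was the gene lost with a half-width of 500 bp or with coding transcripts only, and Car1 the gene lost from replicate 1 with equal list lengths. With the highest-scoring 50% of peaks, the window held 32 peaks in replicate 1 and 12 in replicate 2, and 9 shared sites. With equal list lengths it held 22 in replicate 1, and 11 shared sites. Without replicate 1 the window had 27 sites, and without replicate 2 it had 57, of 65 with both. With coding transcripts only, 4 and 3 carbonic anhydrases elsewhere had a promoter peak. Peaks widened by 50 bp on each side raised GATA matches to 16 and 8, RUNX to 7 and 7, AP-1 and PU.1 in replicate 2 to 2 each, and metal response element matches in replicate 1 to 14; a wider search holds more letters by construction. The other 50 of 65 recomputed counts stayed within 1.5 times. Of 40 recomputed numbers of promoter peaks of single cluster genes, 10 moved further; Car1 had 4 in replicate 1 at a half-width of 2000 bp. Depth is unknown in both lists, so a missing peak in replicate 2, the shorter list, does not show closed chromatin. No paired analysis was possible because there is 1 group.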

Other observations

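The Car13 to Car1 interval also holds Gm5843, an unprocessed pseudogene (chromosome 3, 14722416 to 14729626), and neither list had a peak in it. The nearest sites, both of replicate 1 alone, lay just behind it at 14733936 to 14734125 and 14734976 to 14735125, with scores of 53 and 38. Repeat-masked sequence made up 80.5% and 100% of them, compared with a median of 8.67% over the replicate 1 peaks of the window and 14.0% over the whole list. In replicate 2 the median was 0 in the window and 1.33% over the whole list. Past Car2, 7 sites between 14910256 and 14919365 had a peak in replicate 1 alone, with scores from 33 to 82.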
